A study of Homo sapiens with 8 samples.

Results

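The integrins and laminins of the count lists were taken by gene symbol: integrin alpha and beta genes (names in ITGA or ITGB, without the integrin beta-like gene ITGBL1) and laminin alpha, beta and gamma chain genes (LAMA, LAMB and LAMC). Of the 23228 genes listed, 37 of these are described, 26 integrins and 11 laminins. They were read by RNA-seq in BT-549, an established mesenchymal cell line of triple negative breast cancer (TNBC), in 8 libraries, 2 for each of 4 groups: vehicle, 100 nM EC359, 10 µM vorinostat, and EC359 with vorinostat at those doses (the combination), each for 24 h. EC359 is an inhibitor of the leukemia inhibitory factor receptor (LIFR), and vorinostat is an inhibitor of histone deacetylases (HDACi). The groups come from 1 cell line, and no group carries a genetic change of its own. The labels do not say whether the 2 libraries of a group are separate cultures, so the p-values measure the spread between these libraries, which may be technical.

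Integrins are receptors of the cell surface, each made of an alpha and a beta chain, that tie the cell to the matrix around it. The alpha chain largely sets the ligand: ITGA3, ITGA6 and ITGA7 bind laminins, ITGA5 and ITGAV bind proteins with an RGD motif such as fibronectin and vitronectin, ITGA1, ITGA2, ITGA10 and ITGA11 bind collagens, and ITGA4, ITGA9 and the leukocyte alpha chains bind other matrix and cell surface proteins. Laminins are secreted trimers of an alpha, a beta and a gamma chain, and form the sheet on which a basement membrane is built. LAMA3 and LAMB3 encode chains of a laminin that anchors epithelial cells and is known for its part in the migration of carcinoma cells. RNA from a bulk culture was counted, so fewer cells that express a gene and less of its RNA in each cell cannot be told apart.

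The libraries held between 19069450 and 24759041 counts on genes, of which the 37 genes took 0.383% to 0.512%. In all groups the line carried its mesenchymal markers (VIM, ZEB1, CD44, SPARC, AXL and FN1), whose summed level was 9755 to 17264 CPM (counts scaled to a common library size by the TMM method). Endothelial and platelet markers were each under 1 CPM in every library. Luminal epithelial markers summed to 2.97 to 4.02 CPM in vehicle and 7.55 to 8.17 in EC359 libraries, to 13.9 to 25.5 in vorinostat and to 4.20 to 26.0 in combination libraries. Leukocyte markers summed to 0.507 to 4.46 CPM. The 2 EC359 libraries were the least alike, with an SD of the log2 difference across genes of 0.563 against 0.312 to 0.448 in the other groups. Of the 37 genes, 25 passed edgeR's filter on low counts and were tested, among 13694 genes in all. The other 12 (ITGA2B, ITGA8, ITGA9, ITGA11, ITGAD, ITGAL, ITGAM, ITGAX, ITGB7, ITGB8, LAMA4 and LAMB4) had 0 to 11 counts in a library. Of the 25, ITGA1, ITGA2, ITGB6 and LAMA1 had 0 to 4 counts in a vehicle library and passed the filter through treated libraries. Against vehicle the filter thus favours a rise in them, and counts and medians of the tested genes below include them. ITGAD had 0 in all 8, which allows up to 0.154 CPM in a library by counting error alone. All adjusted p-values come from the quasi-likelihood test of edgeR, adjusted over all genes tested (Benjamini-Hochberg). Below, called means an adjusted p of less than 0.01 together with a log2 fold change beyond 1 in either direction. For the interaction of the drugs the p threshold alone was used.

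**Figure D1:**
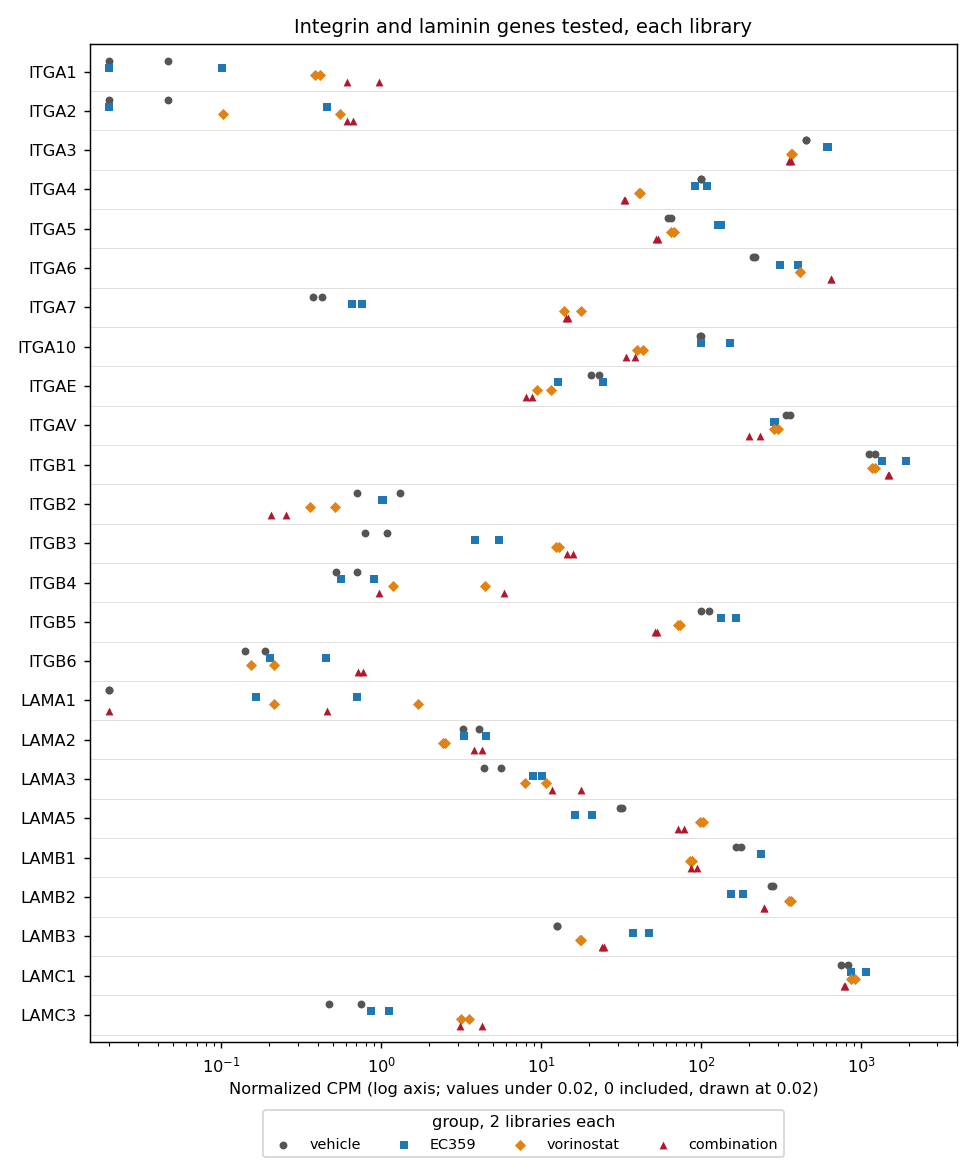
Normalized CPM (log axis) of the 25 integrin and laminin genes tested, 1 point for each of the 8 libraries, with the marker and colour giving the group. ITGB1 and LAMC1 are the highest in each group, and the libraries with vorinostat lie apart from the others for ITGA7, ITGB3, LAMA5 and LAMC3.

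Levels were compared between genes only per length, as normalized CPM per kb of merged exons (mean ± SD, n = 2). In vehicle the leading chains were LAMC1, the gamma chain of most laminins, at 93.1 ± 6.68, and ITGB1, the beta chain that most integrin alpha chains share, at 80.5 ± 5.02. They were followed by ITGA3 at 46.1 ± 0.259, LAMB2 at 40.3 ± 0.759 and ITGA6 at 32.0 ± 0.577. LAMC1 and ITGB1 differed by more than their SDs, but their order depends on the length used: with the longest annotated transcript in place of all exons, ITGB1 was at 209 and LAMC1 at 99.2. ITGB1 made up 82.8% of the summed integrin beta level per length in vehicle and 90.3% with the combination. By level of RNA the integrins of vehicle cells were thus led by ITGB1 with ITGA3, ITGA6 and ITGAV, the last at 18.0 ± 0.612.

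The laminin chains were far from equal in level. The 5 alpha chains summed to 2.70 ± 0.00754 CPM per kb in vehicle, the 4 beta chains to 52.2 ± 1.24 and the gamma chains LAMC1 and LAMC3 to 93.2 ± 6.66. The alpha level was 0.0510 and 0.0525 of the beta level in the 2 vehicle libraries. It was 0.0455 and 0.0477 of it with EC359, 0.128 and 0.131 with vorinostat and 0.130 and 0.149 with the combination. The alpha chain, without which a laminin trimer is not secreted, was thus the scarce one in each group, and its share was higher in the 4 libraries with vorinostat than in the 4 without. With the longest transcript the mean shares were 0.0470, 0.0403, 0.126 and 0.134. Among integrins the alpha sum was 1.37 times the beta sum in vehicle and 1.46 times with the combination, but 0.926 and 0.833 times with the longest transcript, so which class is higher was not settled by these data.

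**Figure D2:**
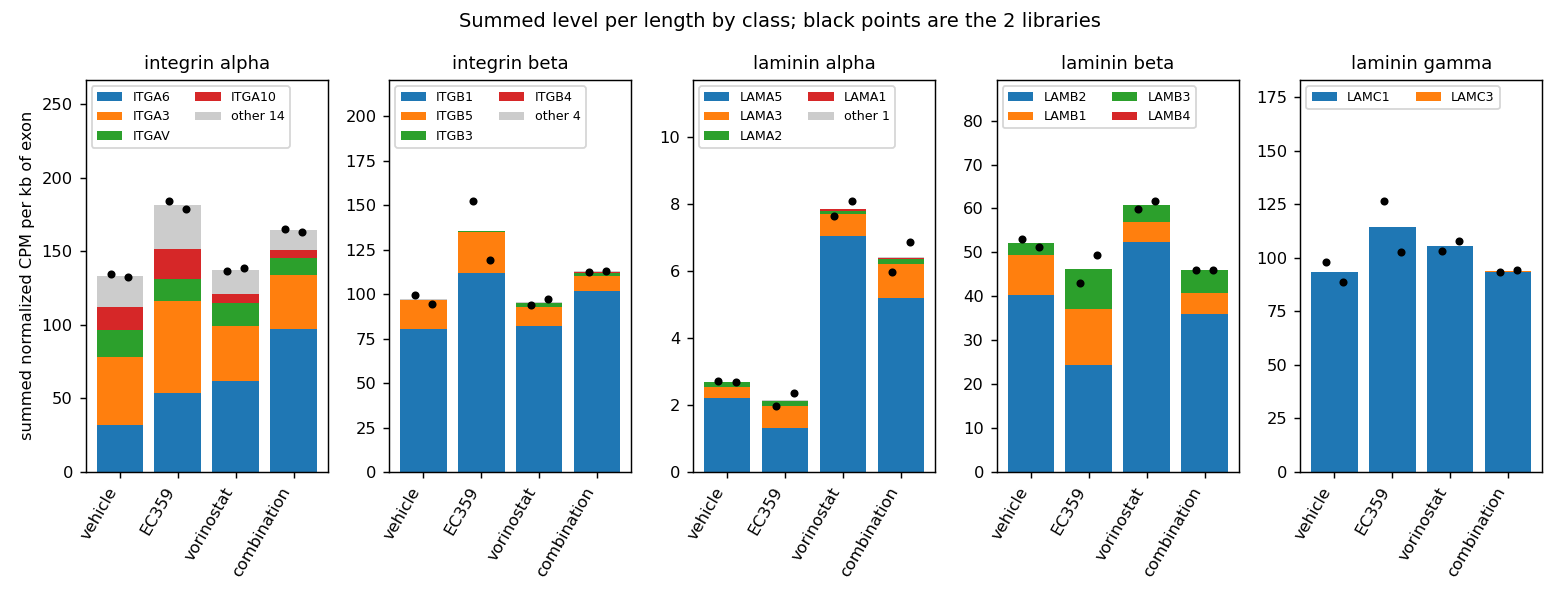
Summed level per length (normalized CPM per kb of merged exons) of the integrin alpha, integrin beta, laminin alpha, laminin beta and laminin gamma genes (LAMC1 and LAMC3) in the 4 groups. Bars are means of 2 libraries stacked by gene, black points are the libraries, and each panel has its own scale: the laminin alpha sum is 2.70 in vehicle and 7.87 with vorinostat, and ITGA6 is 32.0 of the integrin alpha sum in vehicle and 97.3 with the combination.

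Of the laminin-binding alpha chains, ITGA6 and ITGA7 were higher with vorinostat and ITGA3 was not. ITGA6 (chr2:173292082-173371187, GRCh37), which pairs with ITGB1 or ITGB4, had 217 and 211 normalized CPM in the vehicle libraries, 406 and 312 with EC359, 413 and 413 with vorinostat and 650.1 and 649 with the combination. The 4 groups lay in the order vehicle, EC359, vorinostat and combination, and no library of a group reached the next group. Against vehicle its log2 fold change was 1.60 ± 0.12 (SE), adjusted p = 3.28e-06 with the combination (3.04-fold). With EC359 alone it was 0.75 ± 0.12 (SE), adjusted p = 0.00280, and with vorinostat 0.95 ± 0.12 (SE), adjusted p = 9.85e-05, both under the fold threshold. Adding EC359 to vorinostat gave 0.65 ± 0.12 (SE), adjusted p = 0.00387, and the interaction was -0.094 (95% interval -0.47 to 0.28, adjusted p = 0.805). ITGA6 was 24.0% of the integrin alpha level per length in vehicle, 29.6% in EC359, 45.0% in vorinostat and 59.2% in combination libraries. With the longest transcript the first and the last were 17.0% and 47.9%.

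ITGA7 (chr12:56078352-56110188), the laminin receptor chain of skeletal muscle, had 0.425 and 0.374 CPM in the vehicle libraries, 0.660 and 0.761 with EC359, 13.9 and 17.7 with vorinostat and 14.6 and 14.3 with the combination. All 4 libraries with vorinostat were over 10 CPM and all 4 without it under 1. Its log2 fold change against vehicle was 5.29 ± 0.25 (SE), adjusted p = 4.27e-07 with vorinostat and 5.16 ± 0.25 (SE), adjusted p = 3.22e-07 with the combination, the largest changes of the set that rest on more than a few counts. EC359 alone gave 0.81 ± 0.35 (SE), adjusted p = 0.170, and its addition to vorinostat -0.13 ± 0.17 (SE), adjusted p = 0.596, neither of which was called. ITGA3, the other main alpha chain of laminin binding, had 454 and 450.2 CPM in the vehicle libraries, 609 and 618 with EC359, 369 and 366 with vorinostat and 355 and 365 with the combination. EC359 raised it by 0.44 ± 0.074 (SE), adjusted p = 0.00415, past the p threshold but not the fold, and it was -0.30 with vorinostat and -0.33 with the combination. ITGA3 was higher than ITGA6 per length in vehicle and lower with the combination (36.7 ± 0.739 against 97.3 ± 0.1004), on both lengths.

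Among the RGD-binding chains, ITGA5 rose with EC359 alone and not where vorinostat was present. ITGA5 (chr12:54789045-54813050), the alpha chain of the main fibronectin receptor, had 65.1 and 62.0 CPM in the vehicle libraries, 132 and 127 with EC359, 64.9 and 67.6 with vorinostat and 53.9 and 52.2 with the combination. Both EC359 libraries were about 2.04-fold over vehicle, while the vorinostat libraries lay at the vehicle level and the combination libraries below it. The log2 fold change was 1.03 ± 0.089 (SE), adjusted p = 9.55e-05 with EC359, just past the fold threshold, and it stayed past it with any 1 library left out. With vorinostat it was 0.059 (95% interval -0.14 to 0.26, adjusted p = 0.578). EC359 added to vorinostat gave -0.32 ± 0.089 (SE), adjusted p = 0.0274, and the interaction was -1.35 ± 0.13 (SE), adjusted p = 5.55e-04. ITGAV, the alpha chain of the vitronectin receptors, had 357 and 340.2 CPM in the vehicle libraries, 286 and 291 with EC359, 286 and 303 with vorinostat and 232 and 198 with the combination. It was not called against vehicle, at -0.27 ± 0.097 (SE), adjusted p = 0.0901 with EC359, -0.24 ± 0.097 (SE), adjusted p = 0.0507 with vorinostat and -0.70 ± 0.097 (SE), adjusted p = 1.81e-04 with the combination. The promoter of ITGA5 is shown as that of the alpha chain that EC359 raised, 250 bases up to the RefSeq start site (chr12:54813051-54813300, GRCh37, minus strand, no annotated exon), 5′ to 3′, with a GC box (GGGCGG on either strand) in capitals.
ITGA5: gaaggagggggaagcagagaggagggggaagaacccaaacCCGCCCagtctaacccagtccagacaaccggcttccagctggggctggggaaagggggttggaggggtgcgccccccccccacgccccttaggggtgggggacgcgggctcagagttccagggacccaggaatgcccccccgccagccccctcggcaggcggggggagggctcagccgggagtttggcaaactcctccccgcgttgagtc
Its G and C content was 70.0%, and it held no AP-1 motif (TGANTCA), no STAT motif (TTCNNNGAA) and no TATA box (TATAAA). Among 35116 promoters of the same length 42.6% held a GC box, 6.57% an AP-1 motif, 6.57% a STAT motif and 10.7% a TATA box.

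Of the collagen-binding chains, vorinostat called ITGA10 lower and no other against vehicle. ITGA10 (chr1:145524969-145543868), a collagen receptor chain of cartilage, was their most abundant member and had 98.6 and 100.0 CPM in the vehicle libraries, 100.4 and 152 with EC359, 39.6 and 43.1 with vorinostat and 38.7 and 33.8 with the combination. The EC359 libraries differed from each other by more than those of any other group, and all 4 libraries with vorinostat were under 50 CPM. It fell with vorinostat (-1.26 ± 0.18 (SE), adjusted p = 2.18e-04) and with the combination (-1.45 ± 0.18 (SE), adjusted p = 8.23e-05). ITGA1 and ITGA2, receptors of fibrillar and basement membrane collagen, were near the limit of detection in each group. ITGA1 passed the filter on low counts through the combination libraries (12 and 19 counts). A call of the combination against vehicle or EC359 could thus only be upward. It was called higher with the combination against vehicle, from 31 counts against 1, a ratio of 33.7 with an exact 95% counting interval of 5.62 to 1375. That call was lost without either vehicle, vorinostat or combination library (adjusted p = 0.0103 to 0.0408), and its exons share 499 bases with PELO on the same strand. ITGA2 was not called, with 25 counts against 1, a ratio of 27.2 with an exact 95% counting interval of 4.46 to 1117. ITGA11 had 0 or 1 count in a library.

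ITGA4 (chr2:182321929-182403667), the chain that binds VCAM-1 and fibronectin and is best known from leukocytes, had 99.8 and 99.1 CPM in the vehicle libraries, 109 and 91.1 with EC359, 41.2 and 40.9 with vorinostat and 33.2 and 32.8 with the combination. Libraries with vorinostat were all below those without, and the 2 libraries of vehicle, of vorinostat and of the combination differed by under 1 CPM. Its log2 fold change was -1.28 ± 0.11 (SE), adjusted p = 9.10e-06 with vorinostat and -1.59 ± 0.11 (SE), adjusted p = 2.02e-06 with the combination, against 0.0093 with EC359 (95% interval -0.23 to 0.25). Of its merged exons, 26.4% lie on exons of CERKL on the opposite strand, and it is not known whether reads were counted by strand, so those of the 2 genes cannot be told apart there.

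Of the leukocyte alpha chains, ITGAE was tested and ITGAD, ITGAL, ITGAM and ITGAX were not, with 0 to 9 counts in a library. ITGAE (chr17:3617922-3704482), which with ITGB7 forms the receptor for E-cadherin on T cells, had 20.6 and 22.9 CPM in the vehicle libraries, 12.8 and 24.2 with EC359, 9.46 and 11.5 with vorinostat and 8.70 and 8.07 with the combination. The EC359 libraries spanned the vehicle level, and the vorinostat and combination libraries lay below vehicle. It fell with vorinostat (-1.05 ± 0.27 (SE), adjusted p = 0.00689) and with the combination (-1.37 ± 0.27 (SE), adjusted p = 0.00160). The first call was lost without either vehicle, vorinostat or combination library (adjusted p = 0.0173 to 0.0575) and the second without vehicle 2 or either combination library (adjusted p = 0.0117 to 0.0187). Its partner ITGB7 had 0 to 5 counts in a library. Over the same groups the summed leukocyte markers went from 1.03 to 1.04 CPM with vehicle to 4.37 to 4.46 with vorinostat and 3.68 to 4.40 with the combination, with CD14 and CSF1R called higher in both and PTPRC, the marker of all leukocytes, called lower with the combination (0 counts in both libraries). CD3E had 1 count in all. The part of such cells in ITGAE was not tested.

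Among the beta chains, ITGB3 rose in each treated group and ITGB1 was called in none. ITGB3 (chr17:45331193-45391109), the partner of ITGAV in a vitronectin receptor, had 1.09 and 0.794 CPM in the vehicle libraries, 3.88 and 5.43 with EC359, 12.4 and 12.9 with vorinostat and 14.5 and 15.7 with the combination. No group overlapped another, in the order vehicle, EC359, vorinostat and combination. Against vehicle its log2 fold change was 2.29 ± 0.26 (SE), adjusted p = 4.32e-04 with EC359 (4.90-fold), 3.74 ± 0.24 (SE), adjusted p = 2.17e-06 with vorinostat (13.4-fold) and 3.999 ± 0.24 (SE), adjusted p = 1.09e-06 with the combination (15.99-fold). With the vehicle and EC359 libraries fitted alone, the first of these had an adjusted p of 0.0160. EC359 added to vorinostat gave 0.25 ± 0.19 (SE), adjusted p = 0.340, and the interaction was -2.04 ± 0.32 (SE), adjusted p = 0.00749. Platelets are the cells in which ITGB3 pairs with ITGA2B, and their markers were at 0 to 0.461 CPM summed, and GP1BA, GP9 and PF4 at 0 in all 8 libraries. ITGA2B had 0 to 7 counts in a library. Even with the combination ITGB3 was at 2.21 ± 0.129 CPM per kb, against 8.03 ± 0.149 for ITGB5, another partner of ITGAV.

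ITGB5 (chr3:124480795-124620265) was called lower with the combination and had 99.5 and 112 CPM in the vehicle libraries, 132 and 164 with EC359, 73.2 and 71.2 with vorinostat and 51.6 and 53.0 with the combination. The combination libraries were below all others and the EC359 libraries above all others. Its log2 fold change against vehicle was -1.01 ± 0.12 (SE), adjusted p = 6.80e-05 with the combination, at the fold threshold, and -0.94 without vehicle 2, where the call was lost. Against EC359 it was -1.502 ± 0.12 (SE), adjusted p = 6.47e-06. ITGB1 had 1224 and 1120.2 CPM in the vehicle libraries, 1907 and 1356 with EC359, 1169.5 and 1216 with vorinostat and 1489 and 1479.8 with the combination, and its largest change was 0.48 ± 0.14 (SE), adjusted p = 0.0459 with EC359, whose 2 libraries differed widely. With vorinostat it was 0.025 (95% interval -0.29 to 0.34). ITGB2 (chr21:46305868-46351904), the common beta chain of leukocyte integrins, had 0.708 and 1.31 CPM in the vehicle libraries, 1.03 and 1.01 with EC359, 0.360 and 0.510 with vorinostat and 0.205 and 0.255 with the combination. It was called lower with the combination against vehicle (-2.10 ± 0.57 (SE), adjusted p = 0.00883) and against EC359 (-2.12 ± 0.57 (SE), adjusted p = 0.00834). Both calls were lost when any 1 of the 8 libraries was left out (adjusted p = 0.0107 to 0.0982 and 0.0139 to 0.0421), and with DESeq2. Of the leukocyte markers, PTPRC had 0 counts in both combination libraries and 0.654 to 0.708 CPM in vehicle, while CD14 (4.65 ± 0.67 (SE), adjusted p = 2.14e-04) and CSF1R (3.46 ± 0.70 (SE), adjusted p = 0.00181) were called higher and the summed markers were higher too. The part of such cells in ITGB2 was not tested.

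ITGB4, the partner of ITGA6 in the hemidesmosome of epithelial cells, was low in each group and split by library, with 0.519 and 0.701 CPM in the vehicle libraries, 0.907 and 0.558 with EC359, 1.18 and 4.42 with vorinostat and 0.972 and 5.87 with the combination. It was not called (2.21 ± 0.89 (SE), adjusted p = 0.0535 with vorinostat and 2.48 ± 0.89 (SE), adjusted p = 0.0325 with the combination). The summed luminal epithelial markers were 25.5 and 13.9 CPM in the vorinostat libraries and 4.20 and 26.0 in the combination libraries, so they stood in the order of ITGB4 in the second pair and not in the first, and the part of such cells in ITGB4 was not tested. ITGB6, an epithelial partner of ITGAV, had 0.189 and 0.140 CPM in the vehicle libraries, 0.454 and 0.203 with EC359, 0.154 and 0.213 with vorinostat and 0.768 and 0.715 with the combination, and was not called (2.13 ± 0.65 (SE), adjusted p = 0.0156 with the combination). ITGB8 had 0 to 11 counts in a library and was not tested.

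**Figure D3:**
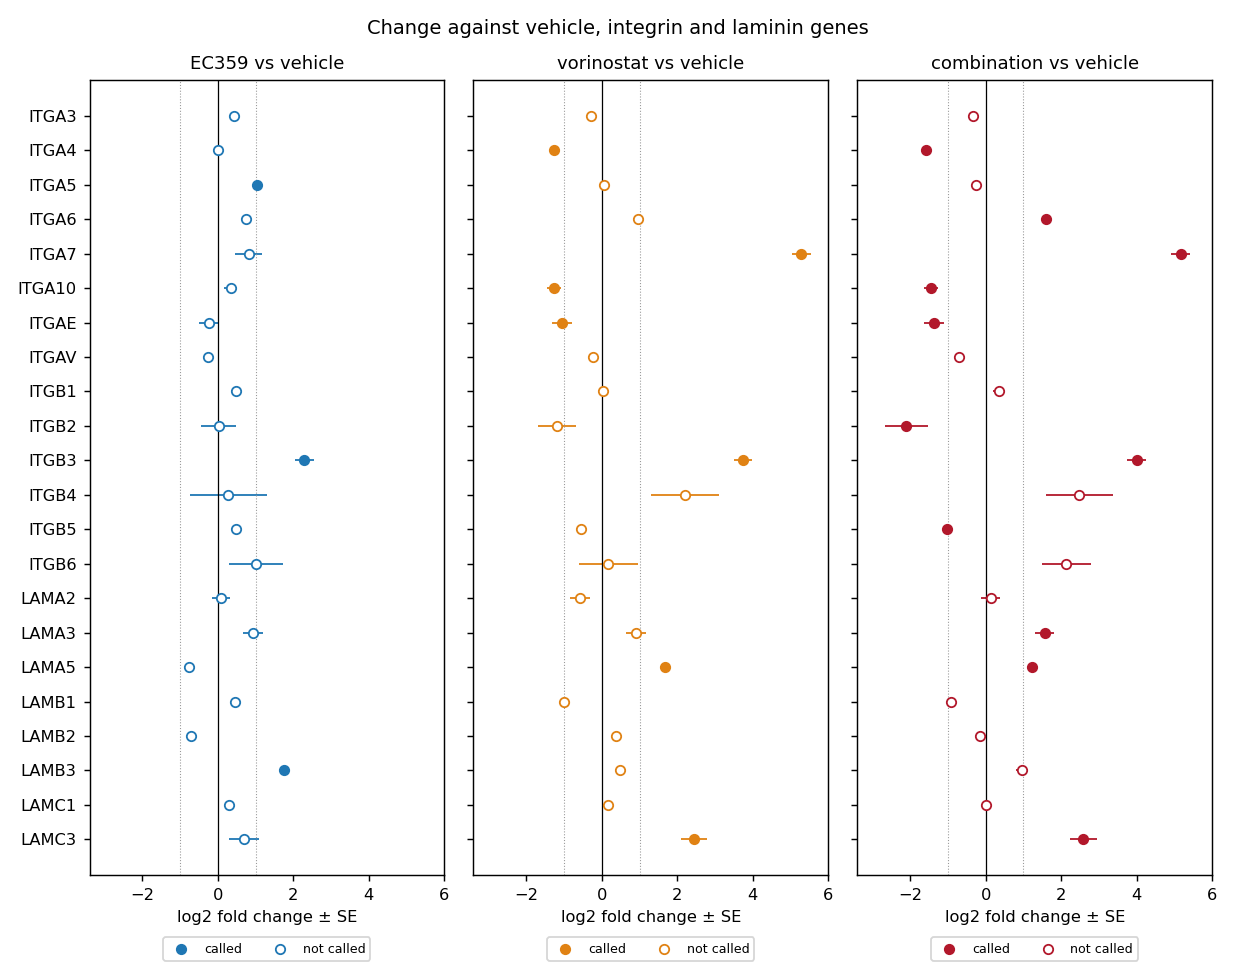
Log2 fold change against vehicle ± SE (edgeR, 2 libraries a group) of 22 of the 25 genes tested, in 3 panels for EC359, vorinostat and the combination. ITGA1, ITGA2 and LAMA1, with 0 or 1 count in vehicle, are left out. Filled points were called, dotted lines mark a log2 fold change of 1 in either direction, and ITGA7 stands at 5.29 with vorinostat and 5.16 with the combination.

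The epithelial chains LAMB3 and LAMA3 were called higher in different comparisons, LAMB3 with EC359 alone and LAMA3 with the combination. LAMB3 (chr1:209788215-209825770) had 12.6 and 12.5 CPM in the vehicle libraries, 37.3 and 47.2 with EC359, 17.8 and 17.5 with vorinostat and 23.8 and 24.6 with the combination. Each EC359 library was over each combination library, and those were over vorinostat and vehicle. Its log2 fold change against vehicle was 1.75 ± 0.14 (SE), adjusted p = 6.57e-05 with EC359 (3.37-fold), 0.49 ± 0.14 (SE), adjusted p = 0.0135 with vorinostat and 0.95 ± 0.14 (SE), adjusted p = 2.88e-04 with the combination. EC359 added to vorinostat gave 0.46 ± 0.14 (SE), adjusted p = 0.0382, and the interaction was -1.29 ± 0.20 (SE), adjusted p = 0.00633.

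LAMA3 (chr18:21269417-21536186) had 5.57 and 4.39 CPM in the vehicle libraries, 8.95 and 10.1 with EC359, 7.97 and 10.7 with vorinostat and 11.6 and 17.8 with the combination. All 6 treated libraries were over both vehicle libraries. It was called with the combination (1.56 ± 0.25 (SE), adjusted p = 4.51e-04) and not with EC359 (0.93 ± 0.25 (SE), adjusted p = 0.0361) or vorinostat (0.91 ± 0.25 (SE), adjusted p = 0.0113). Per length the 2 genes were at 1.02 ± 0.303 (LAMA3) and 5.21 ± 0.109 (LAMB3) with the combination, against 0.344 ± 0.0576 and 2.70 ± 0.0201 in vehicle. In the combination libraries LAMA3 and the summed luminal epithelial markers (4.20 and 26.0 CPM) were both higher in the second library. The same held in the EC359 libraries (markers 7.55 and 8.17 CPM). In the vehicle (2.97 and 4.02 CPM) and vorinostat libraries (25.5 and 13.9 CPM) the markers and LAMA3 stood in opposite order. The part of those cells in LAMA3 was not tested.

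The promoters of LAMA3 and LAMB3 are shown because, of the 26 genes described that have an entry in the RefSeq promoter table (33 windows), they were the 2 with an AP-1 motif (TGANTCA, which reads the same letters on both strands) in the 250 bases before a start site. The motif was in 2 of the 33 windows and in 6.57% of 35116 promoters of that length. The other LAMB3 windows (chr1:209825675-209825924 and chr1:209825771-209826020) held none. Capitals mark the AP-1 motif and the GC box (GGGCGG or CCGCCC), which do not overlap here.
LAMA3 (chr18:21452734-21452983, GRCh37, plus strand): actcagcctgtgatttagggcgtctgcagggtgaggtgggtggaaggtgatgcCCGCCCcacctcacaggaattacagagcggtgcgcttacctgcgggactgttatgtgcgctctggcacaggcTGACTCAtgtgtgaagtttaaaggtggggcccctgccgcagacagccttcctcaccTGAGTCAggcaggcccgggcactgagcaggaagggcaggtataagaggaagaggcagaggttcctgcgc
LAMB3 (chr1:209824740-209824969, GRCh37, minus strand): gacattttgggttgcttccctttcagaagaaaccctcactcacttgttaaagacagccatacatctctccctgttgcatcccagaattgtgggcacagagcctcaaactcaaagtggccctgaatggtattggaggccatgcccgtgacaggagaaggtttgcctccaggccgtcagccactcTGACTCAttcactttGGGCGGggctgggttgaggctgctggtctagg
The LAMA3 window lies inside the gene, before the start of a shorter transcript, and holds no annotated exon. Its AP-1 motifs begin at positions -125 and -69 counted from that start, and its GC box at -197. The LAMB3 stretch lies in an intron of the longest gene model and leaves out the last 20 bases before the start, which are exonic. Its AP-1 motif begins at -67 and its GC box at -52. These matches are letters of the sequence and no measure of binding.

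LAMA5, the most abundant laminin alpha chain, followed vorinostat. LAMA5 (chr20:60883011-60942368), a broad chain of basement membranes, had 31.3 and 31.9 CPM in the vehicle libraries, 16.4 and 20.8 with EC359, 98.2 and 103 with vorinostat and 71.1 and 77.6 with the combination. The EC359 libraries were below vehicle, and the combination libraries lay between vehicle and vorinostat. It rose by 1.67 ± 0.12 (SE), adjusted p = 4.56e-06 with vorinostat (3.19-fold) and 1.24 ± 0.12 (SE), adjusted p = 2.18e-05 with the combination. EC359 gave -0.77 ± 0.13 (SE), adjusted p = 0.00383 alone and -0.44 ± 0.12 (SE), adjusted p = 0.0251 on top of vorinostat, lower in each case and not called. LAMA5 was 81.7% of the laminin alpha level per length in vehicle, 60.1% in EC359, 89.6% in vorinostat and 81.3% in combination libraries. The 250 bases before its start site (chr20:60942369-60942618, GRCh37, minus strand, no annotated exon) are shown as the window with the most GC boxes of the set, 5, in capitals.
LAMA5: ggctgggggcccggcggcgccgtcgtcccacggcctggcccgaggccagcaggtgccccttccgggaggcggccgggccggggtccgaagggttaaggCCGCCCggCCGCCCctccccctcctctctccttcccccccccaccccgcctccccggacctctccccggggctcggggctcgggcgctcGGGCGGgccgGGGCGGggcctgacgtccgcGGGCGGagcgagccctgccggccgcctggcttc
Its G and C content was 82.8%, against a median of 58% over all promoters.

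Of the other laminin alpha chains, LAMA2, the chain of muscle and peripheral nerve, had 3.26 and 4.11 CPM in the vehicle libraries, 4.49 and 3.30 with EC359, 2.42 and 2.51 with vorinostat and 3.79 and 4.29 with the combination, and was not called, with 0.13 ± 0.25 (SE), adjusted p = 0.649 for the combination. LAMA1, an early embryonic chain, had 0 counts in both vehicle libraries, 4 and 14 with EC359, 33 and 5 with vorinostat and 0 and 9 with the combination. It was not called in any comparison, and 1 combination library stood at 0 as vehicle did. LAMA4 had 1 to 10 counts in a library.

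Of the other beta and gamma chains, LAMC3 was called with vorinostat and with the combination, and LAMB1 between the combination and EC359. LAMB1 had 177 and 165 CPM in the vehicle libraries, 235 and 237 with EC359, 87.1 and 84.9 with vorinostat and 94.1 and 87.0 with the combination. It was higher in both EC359 libraries than in vehicle and lower in all 4 libraries with vorinostat. Its log2 fold change was 0.46 ± 0.087 (SE), adjusted p = 0.00746 with EC359, -0.99 ± 0.089 (SE), adjusted p = 1.32e-05 with vorinostat, just inside the fold threshold, and -1.38 ± 0.089 (SE), adjusted p = 1.67e-06 for the combination against EC359, which was called. LAMB2 had 280.2 and 273 CPM in the vehicle libraries, 153 and 182 with EC359, 352 and 366 with vorinostat and 246 and 247 with the combination. It went the opposite way in the single treatments, -0.72 ± 0.098 (SE), adjusted p = 0.00125 with EC359 and 0.38 ± 0.098 (SE), adjusted p = 0.00777 with vorinostat, and was -0.54 ± 0.098 (SE), adjusted p = 0.00415 when EC359 was added to vorinostat. LAMB1 was thus 17.6% of the laminin beta level per length in vehicle, 27.6% with EC359 and 7.62% with vorinostat, or 33.0%, 47.3% and 15.98% with the longest transcript. LAMC1 had 826 and 747 CPM in the vehicle libraries, 1066 and 866 with EC359, 869 and 909.5 with vorinostat and 785 and 795 with the combination. Its log2 fold change with the combination was 0.0067 (95% interval -0.23 to 0.25). LAMC3 (chr9:133884561-133969860), a gamma chain of few tissues, was low and had 0.472 and 0.747 CPM in the vehicle libraries, 0.866 and 1.12 with EC359, 3.55 and 3.15 with vorinostat and 4.25 and 3.12 with the combination. It was over 3 CPM in the 4 libraries with vorinostat and under 1.2 in the others, with 2.44 ± 0.36 (SE), adjusted p = 2.75e-04 for vorinostat and 2.58 ± 0.36 (SE), adjusted p = 1.68e-04 for the combination.

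Counted over the set, EC359 alone called 3 of the 37 genes (25 tested), ITGA5, ITGB3 and LAMB3, all higher. Of all 13694 genes tested 3.67% were called in that comparison, with 1.94% called higher and 1.72% lower. A further 5 passed the p threshold under the fold threshold: ITGA3, ITGA6 and LAMB1 were higher and LAMA5 and LAMB2 lower. The share of all genes that did so was not counted. The median log2 fold change of the 25 tested was 0.48, beside -0.022 over all genes tested, and the 12 genes not tested are outside it. The 3 calls held with any 1 library left out and with DESeq2.

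Vorinostat called 7 of the 37 genes. ITGA7, ITGB3, LAMA5 and LAMC3 were higher, and ITGA4, ITGA10 and ITGAE were lower. Of all genes tested 30.1% were called, 16.8% higher and 13.3% lower, so the share of the 25 members tested, 28.0%, was near the background. The median log2 fold change was 0.18 for the members tested and 0.03 for all genes. All 3 genes called lower were integrin alpha chains, and both laminin chains called were higher. The laminin chain LAMB1 was lower (-0.99, adjusted p = 1.32e-05) and missed a call only by the fold threshold, so this split by family depends on that threshold. With 1 library left out, 6 to 9 genes were called.

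The combination called 12 of the 37 genes against vehicle, 7 higher (ITGA1, ITGA6, ITGA7, ITGB3, LAMA3, LAMA5 and LAMC3) and 5 lower (ITGA4, ITGA10, ITGAE, ITGB2 and ITGB5). The background was 34.8% of all genes tested, 19.5% higher and 15.3% lower, against 48% of the 25 members tested. The 3 laminin chains called were all higher, while integrins split into 4 higher and 5 lower. LAMB1 was lower (-0.92, adjusted p = 1.71e-05) and under the fold threshold. Of the integrin calls, those of ITGA1, ITGAE, ITGB2 and ITGB5 did not hold when some single libraries were left out, for ITGB5 only vehicle 2. Median log2 fold changes were 0.04 for the 16 integrins tested, 0.95 for the 9 laminins tested and 0.068 for all genes. The integrin median includes ITGA1, ITGA2 and ITGB6 and the laminin median LAMA1, which passed the filter through treated libraries. The medians therefore do not show a rise of either family, and the 48% includes the ITGA1 call. Against EC359 the combination also called 12 genes, or 48% of the 25 tested, beside a background of 33.7%, 19.8% higher and 13.9% lower. Of these 5 were higher (ITGA1, ITGA7, ITGB3, LAMA5 and LAMC3) and 7 lower (ITGA4, ITGA5, ITGA10, ITGAE, ITGB2, ITGB5 and LAMB1). There the ITGA1 call was lost in 7 of 8 fits that left out 1 library (adjusted p = 0.0113 to 0.0384). The ITGAE call (-1.13 ± 0.27 (SE), adjusted p = 0.00479) was lost without EC359 2, at a log2 fold change of -0.63, and without either combination library. ITGA5 was -1.29 ± 0.09 (SE), adjusted p = 2.60e-06 there, ITGA7 4.34 ± 0.23 (SE), adjusted p = 5.59e-07 and LAMA5 2.00 ± 0.13 (SE), adjusted p = 1.56e-06. The comparisons against vehicle share the vehicle libraries, and those of the combination share its libraries, so their calls are not independent.

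Against vorinostat the combination called 0 of the 37 genes by edgeR and 0 by DESeq2. Of all genes tested 4.25% were called by edgeR, 3.37% higher and 0.876% lower. Before adjustment 12 of the 25 tested members had an edgeR p under 0.05, and the share of all genes at that looser threshold was not counted. ITGA6 passed the p threshold upward and ITGAV and LAMB2 downward, under the fold threshold. The interaction, the EC359 difference with vorinostat less that without it, was called for 3 of the 37 genes, ITGA5, ITGB3 and LAMB3, beside 2.10% of all genes. In each it was below 0: 0.482% of all genes had an interaction called below 0 and 1.62% above. These are the 3 genes that EC359 raised alone, and that effect is a term of the interaction. The EC359 effect went from 1.03 without vorinostat to -0.32 with it for ITGA5, from 2.29 to 0.25 for ITGB3 and from 1.75 to 0.46 for LAMB3. For ITGA5 the call held with any 1 library left out. For ITGB3 and LAMB3 it was lost without vehicle 1, vehicle 2, vorinostat 1, vorinostat 2, combination 1 or combination 2, at adjusted p = 0.0333 to 0.0567 and 0.0376 to 0.0479, and held without either EC359 library. ITGB5 (-0.95 ± 0.17 (SE), adjusted p = 0.0129) and ITGA3 (-0.47 ± 0.11 (SE), adjusted p = 0.0320) lay just outside the threshold, also below 0.

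**Figure D4:**
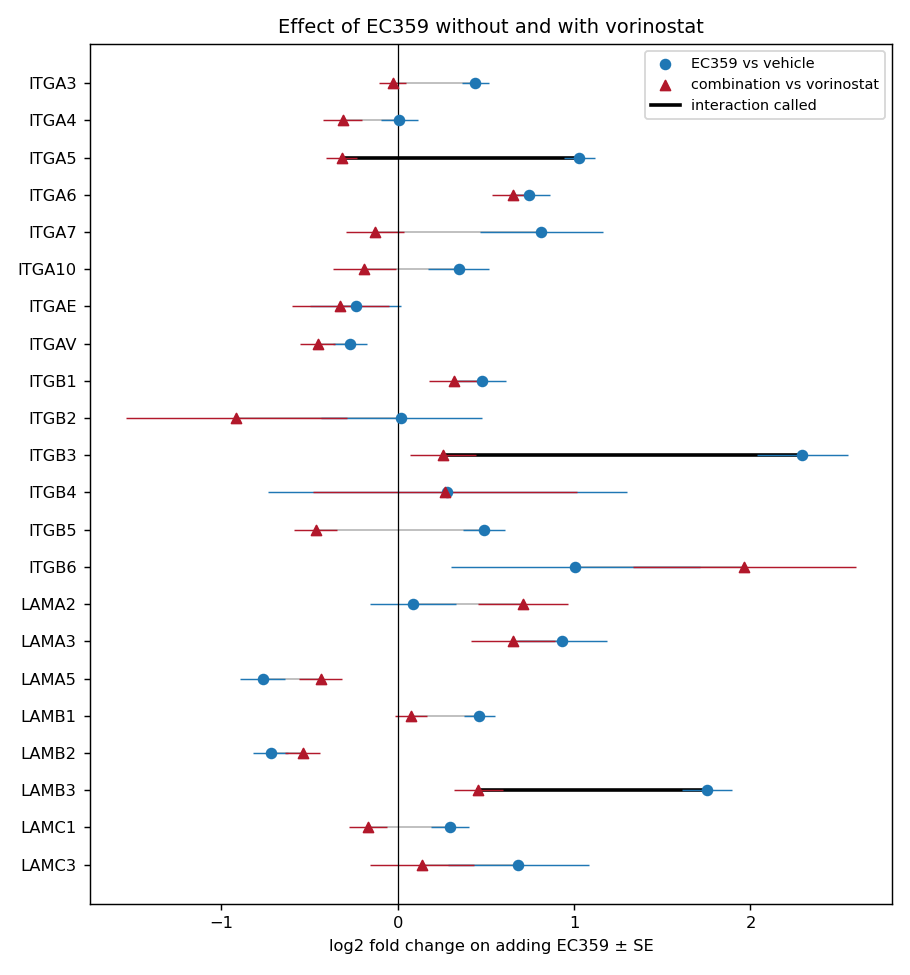
Log2 fold change on adding EC359 ± SE, without vorinostat (EC359 against vehicle, circles) and with it (combination against vorinostat, triangles), for 22 genes tested. Black bars join the pairs whose interaction was called: ITGA5, ITGB3 and LAMB3 move to the left with vorinostat, and ITGA6 stays near 0.65 to 0.75.

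The genes around the 2 families were described by lists of general knowledge. With EC359 1.94% of all genes tested were called higher and 1.72% lower. Of 37 integrin adaptors and focal adhesion genes (34 tested), which link integrins to actin, 2 were called lower with EC359 and none higher. These were TNS3, a tensin (-1.62 ± 0.092 (SE), adjusted p = 8.16e-06), and KANK2, which binds talin (-1.18 ± 0.099 (SE), adjusted p = 7.80e-05). With vorinostat 5 of the 34 tested were higher and 10 lower, where 16.8% and 13.3% of all genes tested were. NEDD9, a scaffold of the CAS family (3.45 ± 0.34 (SE), adjusted p = 2.42e-05), and FERMT3, the kindlin of blood cells (2.95 ± 0.62 (SE), adjusted p = 0.00254), were the highest, and KANK1 (-3.55 ± 0.14 (SE), adjusted p = 2.47e-07) and TGFB1I1, which encodes the paxillin relative Hic-5 (-3.36 ± 0.21 (SE), adjusted p = 1.69e-06), the lowest. The list's median log2 fold change was -0.19, beside 0.03 over all genes. With EC359 added to vorinostat NEDD9 was higher (1.39 ± 0.25 (SE), adjusted p = 0.00422), and TNS3 (-1.26 ± 0.094 (SE), adjusted p = 3.45e-05) and the kindlin FERMT2 (-1.15 ± 0.12 (SE), adjusted p = 2.58e-04) were lower. ITGB1 and ITGAV, which these proteins serve, were not called in any of these comparisons.

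Of 26 other integrin ligands and basement membrane genes (23 tested), EC359 called LTBP1, a latent TGF-beta binding protein, higher (1.12 ± 0.10 (SE), adjusted p = 1.15e-04), and fibrillin 1 (FBN1, -1.83 ± 0.12 (SE), adjusted p = 1.61e-05) and EDIL3, an RGD protein (-1.26 ± 0.17 (SE), adjusted p = 0.00125), lower. Of all genes tested 1.94% were called higher and 1.72% lower with EC359. With vorinostat 7 of the 23 tested were higher and 3 lower, beside 16.8% and 13.3% of all genes. Osteopontin (SPP1, 3.75 ± 0.71 (SE), adjusted p = 0.00137) and nidogen 2, which binds laminin (NID2, 3.74 ± 0.16 (SE), adjusted p = 2.60e-07), were the highest, and FBN1 (-1.73 ± 0.12 (SE), adjusted p = 2.74e-06) and the collagen IV chain COL4A1 (-1.07 ± 0.081 (SE), adjusted p = 5.03e-06) the lowest. Against vorinostat the combination called 5 higher and 0 lower, with 3.37% and 0.876% of all genes. SPP1 (2.25 ± 0.42 (SE), adjusted p = 0.00467) and tenascin C (TNC, 1.57 ± 0.12 (SE), adjusted p = 4.23e-05) led them, and ICAM1, FN1 and CTGF were the others. The list's median there was -0.042, beside -0.0082 over all genes, so most of the list did not share that direction.

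For the small lists that follow, the shares of all genes called were 3.67% with EC359, 30.1% with vorinostat and 4.25% between the combination and vorinostat. Among 6 non-integrin laminin receptors, all tested, none was called with EC359. With vorinostat BCAM, the Lutheran antigen that binds the product of LAMA5, was higher (4.74 ± 0.42 (SE), adjusted p = 1.31e-05) and the syndecan SDC1 lower (-1.27 ± 0.13 (SE), adjusted p = 2.43e-05). Of 10 tetraspanins and partners, EC359 called CD82 higher (1.19 ± 0.15 (SE), adjusted p = 9.29e-04) and CAV1 lower (-1.19 ± 0.074 (SE), adjusted p = 1.40e-05). Vorinostat called CD9 (2.12 ± 0.13 (SE), adjusted p = 1.44e-06) and BSG (1.39 ± 0.072 (SE), adjusted p = 6.91e-07) higher and CAV1 lower (-1.88 ± 0.076 (SE), adjusted p = 2.45e-07). No gene of either list was called between the combination and vorinostat. Of 6 hemidesmosome genes (5 tested), the plaque that ITGB4 anchors, none was called in any comparison. Of 6 netrins (4 tested), laminin-related guidance proteins, NTNG2 was higher with EC359 (1.22 ± 0.13 (SE), adjusted p = 2.62e-04), and NTN5 was higher (3.29 ± 0.69 (SE), adjusted p = 0.00256) and NTN4 lower (-2.18 ± 0.10 (SE), adjusted p = 4.32e-07) with vorinostat.

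**Figure D5:**
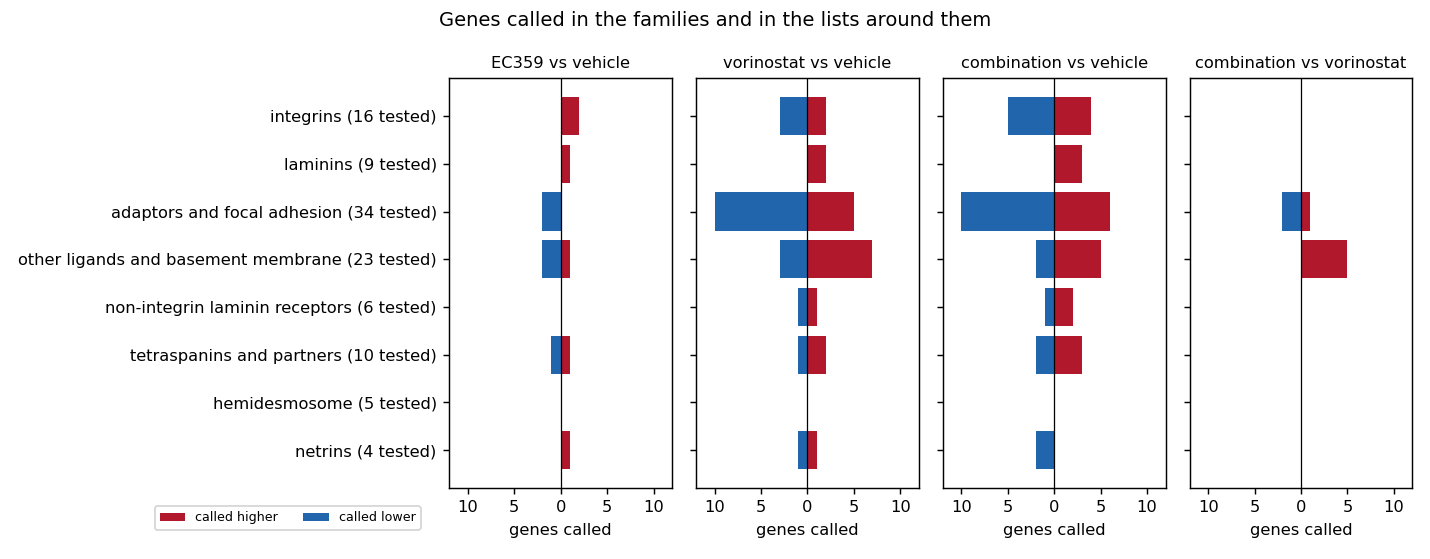
Number of genes called higher (red, to the right) and lower (blue, to the left) in the integrins, the laminins and the 6 lists around them, for 4 comparisons. Numbers tested stand beside the names. With vorinostat 10 of 34 adaptors were called lower and 5 higher (13.3% and 16.8% of all genes), and with EC359 added to vorinostat 5 of 23 other ligands were called higher and 0 lower (3.37% and 0.876% of all genes).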

How the data were processed

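RNA-seq libraries of BT-549 cells, 2 for each of 4 groups, were grouped by the sample labels. Per the study's methods and the submitters' processing notes, the authors aligned 50 bp single-end reads to hg19 with TopHat2 2.0.8b and counted them on RefSeq genes with HTSeq, whose version and strand setting are not given in the sources used here. The deposited values are raw counts per gene, and the summary lines of HTSeq, which name no gene (reads on no gene were 11.0% to 14.2% of unique alignments), were left out. Genes were kept by filterByExpr by group and scaled by TMM in edgeR 4.0.16 (R 4.3.3), and 13694 genes were fitted by quasi-likelihood over all 8 libraries, each group having its own mean. The SE is |log2 fold change| divided by the root of F. The script was tested on simulated data first. Levels per length used the merged exons of GENCODE (version 44 lifted to GRCh37), which gave all 37 genes, so 50 bp reads shared by overlapping genes were not separated. Promoters are RefSeq windows of GRCh38.p14, placed on GRCh37 by exact match of the sequence.

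The 37 genes described are all named, and 1 other gene of the families is not reported here. Values of each library are given for every gene called in any of 6 comparisons and for other tested genes, counts for the rest, and from each list around them the up to 2 genes with the largest change in each direction among those called in EC359 against vehicle, vorinostat against vehicle and the combination against vorinostat. The members and the lists were chosen with earlier results of these data known. Intervals of counts cover counting error only. With 2 libraries a group, no exact test over libraries could reach the threshold. The alternatives tried were scaling by RLE or total counts, DESeq2 1.42.0, 2 other filters, other thresholds, the replicate number as a block, fits on the groups compared, another gene length and leaving out each library. A crossed block and the class shares by library were added after seeing the data. The authors' other experiments were not used here.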

Additional observations from a re-analysis of the deposited data

Results flagged for a closer look

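The effect of EC359 differed between cells without and with vorinostat for 3 genes of the set, by the test of the difference itself (the interaction term, quasi-likelihood test of edgeR, Benjamini-Hochberg adjusted over all genes tested). The difference was -1.35 on the log2 scale for ITGA5 (adjusted p = 5.55e-04), -2.04 for ITGB3 (adjusted p = 0.00749) and -1.29 for LAMB3 (adjusted p = 0.00633). The calls of ITGB3 and LAMB3 were lost with the replicate block (adjusted p = 0.0135 and 0.0116) and when any 1 vehicle, vorinostat or combination library was left out, and that of ITGA5 was not. All 3 genes were called higher with EC359 alone, so it adds no support that each EC359 library lay above each vehicle library. The share of all genes so placed was not counted. With vorinostat, each combination library lay below each vorinostat library for ITGA5 and above it for ITGB3 and LAMB3. Groups of 2 libraries were too small to look for a library far from its group.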

How the results depend on the processing

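Of the 37 member values called, 274 of 291 refits (other than those leaving out a library) kept direction and call and 17 lost the call, and of 113 values not called, 10 of 848 refits gave a call. No called value changed direction. Without the fold threshold, EC359 called 8 genes (6 higher, 2 lower), vorinostat 12 (6 and 6) and the combination against vorinostat 3 (1 and 2). The shares of all genes called without it were not counted. For the interaction an adjusted p under 0.05 gave 5 genes, and DESeq2 gave 5. The shares of all genes called at these 2 settings were not counted, so the rise from 3 is no result about the members. Same-numbered libraries were not shown to be paired: the correlation of their deviations was -0.173 to 0.231 over the 6 pairs of groups. With the replicate block, 1 interaction (ITGA5) was called in place of 3, with adjusted p = 0.0135 for ITGB3 and 0.0116 for LAMB3. The other counts with the block were 3 (EC359), 7 (vorinostat), 11 and 11 for the combination against vehicle and EC359, and 0 against vorinostat. With the 2 combination libraries swapped in number, chosen after seeing the data, these were 3, 7, 11, 11 and 0, with 4 interactions. With 1 library left out, the lone library being assumed to vary like the other groups, counts ran from 3 to 3 (EC359), 6 to 9 (vorinostat), 8 to 12 and 9 to 11 for the combination against vehicle and EC359, 0 to 0 against vorinostat, and 1 to 7 for the interaction (1 without any vehicle, vorinostat or combination library, 6 without EC359 1, 7 without EC359 2). With the longest transcript, 81 of 148 levels per length and 52 of 60 ratios and shares moved by more than the SD of the libraries, so orders between genes of near level depend on the length used. Genes under about 3 counts in a library were below what this depth resolves.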
